A study of Rattus with 6 samples.

Results

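Collagen genes encode the alpha chains of the collagens, and 44 of the 54012 genes in the deposited table belong to this family. They were taken as the protein-coding genes whose mouse symbol is Col, a type number, the letter a and a chain number. No measured value entered that choice. RNA sequencing had been done on 6 libraries of cells labelled as primary cultures of vascular smooth muscle from aorta, the contractile cells of the artery wall. All 6 cultures received Ang II (angiotensin II), a hormone peptide that raises blood pressure and acts on vessel wall cells. Of these, 3 are labelled si-NC, with a control siRNA and a wild-type genotype, and 3 are labelled si-CDCP1, with an siRNA against the membrane glycoprotein CDCP1 and a knockdown genotype. The labels give neither the age of the animals nor the dose and duration of Ang II. Nothing in them says that the replicates are separate cultures or animals. The p-values below therefore reflect only how far these 6 libraries scatter, and that scatter may be technical.

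Collagen chains fold as triple helices, and the type decides what the trimer builds. Fibrillar chains such as those of types I, III and V form the load-bearing fibrils of the artery wall, type IV chains form the mesh of basement membranes around each smooth muscle cell, and type VI chains form beaded microfibrils next to cells. Fibril-associated chains decorate the surface of fibrils, type VIII chains form short networks known from vessel walls, and type XVIII is the basement membrane chain whose end is released as endostatin. In the vessel wall, smooth muscle cells and fibroblasts are the main makers of fibrillar collagen.

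Values are FPKM, fragments scaled by gene length and by library total. They allow levels of different genes to be compared only as far as the listed gene lengths hold. The libraries held 16050517 to 19771638 reads in listed genes, recovered from the FPKM steps, and 3 reads, taken as the detection floor, amount for a 1 kb gene to between 0.149 and 0.192 FPKM. All 44 collagen genes are longer than that, and their floors ran from 0.0098 FPKM (Col12a1) to 0.062 FPKM (Col9a2). These floors cover counting error only. The samples are labelled rat while the table lists mouse genes on the mouse build mm10, and all 44 symbols also exist in the rat RefSeq annotation (GRCr8), so the names do not settle the species. Cdcp1, the siRNA target, had 2, 2 and 1 reads in si-NC and 0, 5 and 0 reads in si-CDCP1, so the labels could not be checked by it (exact two-sided permutation test on FPKM, p = 1, smallest possible 0.1). Of 8 smooth muscle markers, Acta2 (mean 37.4 FPKM in si-NC) and Smtn (8.26 FPKM) were above 1 FPKM, while defining markers such as Myh11, Tagln and Cnn1 averaged under 0.2 FPKM in both groups. Of the markers of other cells, 0 of 5 endothelial, 0 of 4 epithelial and 0 of 3 blood cell markers reached 1 FPKM. That level was reached by 3 of 6 fibroblast markers, 1 of which is Col1a1, 2 of 4 macrophage markers and 2 of 3 pericyte markers. Pericyte markers summed to 30.7 to 34.0 FPKM across the libraries, and macrophage markers to 2.67 to 3.25 FPKM. The library si-CDCP1 replicate 3 stood apart: it lay above every other library in 4107 of the 12080 genes tested (34.0%) and below every other in 3619 (30.0%).

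Of the 44 chains, 17 averaged 1 FPKM or more across the 6 libraries and are called expressed here, 9 lay between 0.1 and 1 FPKM, 15 lay lower but had reads, and 3 (Col9a1, Col13a1 and Col22a1) were listed at 0 in every library. The summed level was dominated by type I collagen. Chains of type I made up 63.1% to 65.5% of the summed collagen FPKM in each library. All collagen chains together took 0.457% to 0.503% of the reads in listed genes. Summed collagen FPKM was 577, 629 and 580.1 in si-NC replicates 1, 2 and 3 and 582, 581 and 656 in si-CDCP1 replicates 1, 2 and 3. The group means were 595 ± 29.2 and 606 ± 42.7 FPKM (SD, n = 3 each), and the ranges overlapped, with the highest sum in si-CDCP1 replicate 3. As a share of each library's FPKM sum the order of the means turned, to 0.212 ± 0.0111% in si-NC and 0.208 ± 0.0133% in si-CDCP1. In bulk RNA, fewer cells that make a collagen and less collagen RNA per cell cannot be told apart.

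**Figure D1:**
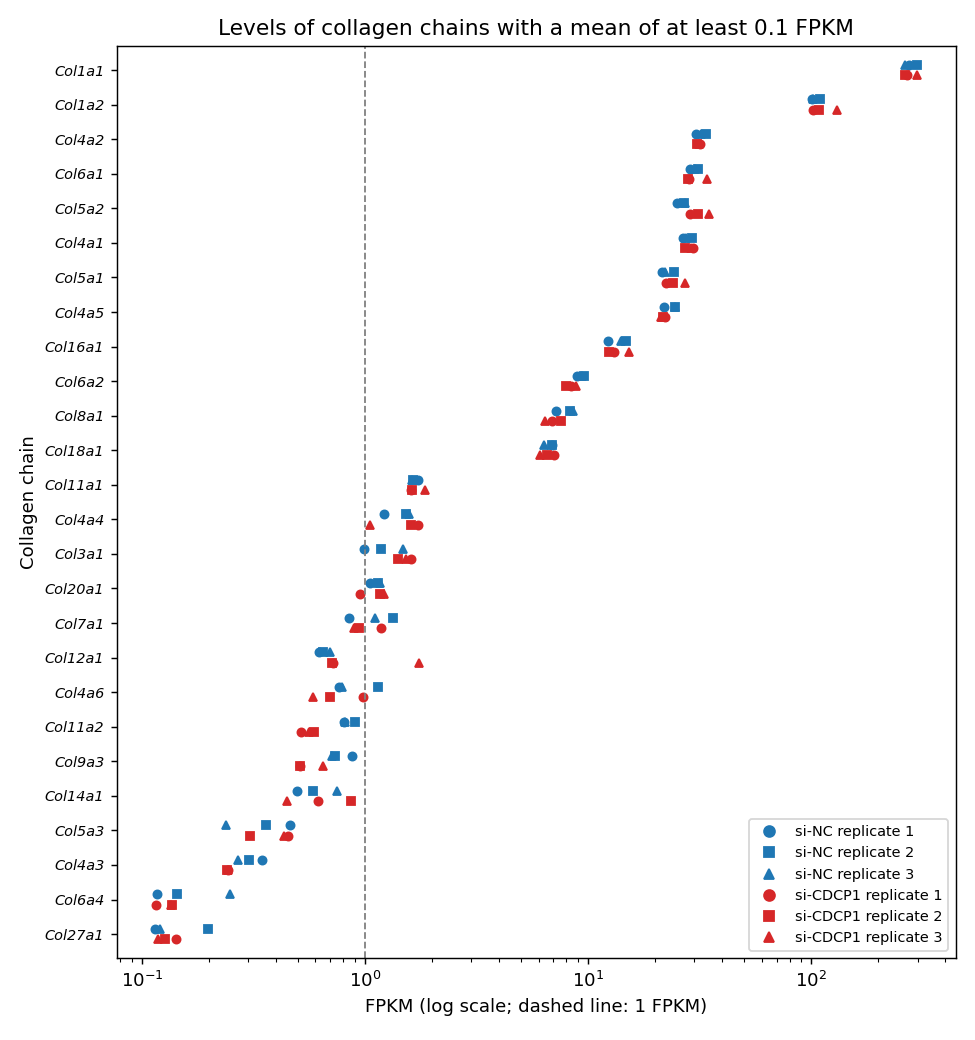
FPKM of the 26 collagen chains with a mean of at least 0.1 FPKM, on a log axis, 1 point per library, with si-NC in blue, si-CDCP1 in red and a dashed line at 1 FPKM. Col1a1 and Col1a2 lie above 100 FPKM, 6 further chains lie above 20 FPKM, and Col12a1 shows 1 library, si-CDCP1 replicate 3, far from the other 5.

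Col1a1 (ENSMUSG00000001506, mm10 chromosome 11, 94936224 to 94953042, plus strand) encodes the main chain of type I collagen and was the highest of the family, at rank 84 of all protein-coding genes. It measured 275, 298 and 264 FPKM in the si-NC libraries against 270.4, 264 and 299 FPKM in the si-CDCP1 libraries. The groups overlapped fully, with means of 279 ± 17.2 and 278 ± 18.8 FPKM (SD, n = 3 each). Col1a2 (ENSMUSG00000029661, chromosome 6, 4504814 to 4541544, plus strand), its partner in the type I heterotrimer, measured 101, 109 and 102 FPKM in si-NC against 102, 108 and 130.1 FPKM in si-CDCP1. Only si-CDCP1 replicate 3 lay above the si-NC range of Col1a2. Of the other major fibrillar collagen of arteries, type III, little RNA was listed. Col3a1 (ENSMUSG00000026043, chromosome 1, 45311538 to 45349706, plus strand) measured 0.989, 1.18 and 1.49 FPKM in si-NC against 1.61, 1.40 and 1.52 FPKM in si-CDCP1, on 645 and 731 reads per group. Col1a1 was far above Col3a1 in every library.

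Type V chains, which start and limit the width of type I fibrils, were next among the fibrillar chains. Col5a2 (ENSMUSG00000026042, chromosome 1, 45374321 to 45503282, minus strand) measured 25.1, 26.9 and 27.2 FPKM in si-NC against 28.6, 31.0 and 34.9 FPKM in si-CDCP1. All 3 si-CDCP1 values of Col5a2 lay above all 3 si-NC values. Its partner Col5a1 (chromosome 2, 27886425 to 28039514, plus strand) measured 21.4, 24.3 and 22.1 FPKM in si-NC against 22.4, 24.0 and 27.3 FPKM in si-CDCP1. The Col5a1 groups overlapped, and again only si-CDCP1 replicate 3 exceeded the si-NC range. Col11a1, a fibrillar chain of cartilage that can join type V chains, measured 1.73, 1.64 and 1.62 FPKM in si-NC against 1.60, 1.62 and 1.86 FPKM in si-CDCP1, with overlap. The remaining fibrillar chains, Col2a1, Col5a3, Col11a2, Col24a1 and Col27a1, averaged under 1 FPKM.

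Basement membrane chains were present as 3 abundant genes. Col4a1 (ENSMUSG00000031502, chromosome 8, 11198423 to 11312826, minus strand) measured 26.7, 29.3 and 27.4 FPKM in si-NC against 29.6, 27.3 and 28.8 FPKM in si-CDCP1. Col4a2 (ENSMUSG00000031503, chromosome 8, 11312805 to 11449287, plus strand), which joins it in the common type IV trimer, measured 30.6, 33.7 and 31.9 FPKM in si-NC against 31.9, 30.8 and 31.6 FPKM in si-CDCP1. Neither chain separated the groups. Col4a5 (ENSMUSG00000031274, chromosome X, 141475385 to 141689234, plus strand), a chain of the minor trimers of smooth muscle, kidney and other basement membranes, measured 22.0, 24.4 and 24.6 FPKM in si-NC against 22.1, 21.7 and 21.2 FPKM in si-CDCP1. Replicates 2 and 3 of si-CDCP1 lay below the si-NC range and replicate 1 just inside it. Col4a4 was low, at 1.21, 1.53 and 1.58 FPKM in si-NC against 1.72, 1.61 and 1.05 FPKM in si-CDCP1, with si-CDCP1 replicate 3 lowest of all. Col4a6 and Col4a3 averaged under 1 FPKM.

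Type VI microfibrils need the chains of Col6a1, Col6a2 and a longer chain, usually that of Col6a3. Col6a1 (ENSMUSG00000001119, chromosome 10, 76708792 to 76726168, minus strand) measured 28.8, 31.1 and 30.2 FPKM in si-NC against 28.3, 28.2 and 34.0 FPKM in si-CDCP1, so that si-CDCP1 held both the lowest and the highest values. Col6a2 (ENSMUSG00000020241, chromosome 10, 76595762 to 76623630, minus strand) measured 8.96, 9.55 and 9.42 FPKM in si-NC against 8.36, 8.00 and 8.85 FPKM in si-CDCP1. All 3 si-CDCP1 values of Col6a2 lay below all 3 si-NC values. Col6a3 had 0, 2 and 1 reads in si-NC and 0, 0 and 3 reads in si-CDCP1, against 7117 and 6479 reads per group for Col6a1. The alternative long chains were no substitute in level: Col6a4 averaged 0.170 and 0.129 FPKM, Col6a5 had 1 and 10 reads per group and Col6a6 had 4 and 6. Col6a3 and Col6a5 are singled out here after their values were seen. With rat-labelled samples and a mouse gene table, a value near 0 is not proof of absence, and whether mapping had a part in it was not tested.

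Among the chains outside these families, Col16a1, a fibril-associated chain of smooth muscle and skin, was highest. It measured 12.2, 14.8 and 14.0 FPKM in si-NC against 13.1, 12.4 and 15.2 FPKM in si-CDCP1, with overlapping groups. Col8a1 (ENSMUSG00000068196, chromosome 16, 57624258 to 57754737, minus strand), a short-chain network collagen that smooth muscle cells make after vessel injury, measured 7.21, 8.28 and 8.55 FPKM in si-NC against 6.86, 7.60 and 6.41 FPKM in si-CDCP1. Of the Col8a1 values, 2 in si-CDCP1 were below the si-NC range and 1 was within it. Its partner Col8a2 had 3 and 4 reads per group. Col18a1, the endostatin precursor, measured 6.86, 6.91 and 6.36 FPKM in si-NC against 7.02, 6.57 and 6.06 FPKM in si-CDCP1, without separation. Col20a1, a fibril-associated chain, measured 1.06, 1.14 and 1.16 FPKM in si-NC against 0.955, 1.17 and 1.22 FPKM in si-CDCP1. Col7a1, the chain of anchoring fibrils, measured 0.852, 1.33 and 1.11 FPKM in si-NC against 1.18, 0.936 and 0.897 FPKM in si-CDCP1. Neither of these low chains separated the groups. The 4 transmembrane chains, Col13a1, Col17a1, Col23a1 and Col25a1, each averaged under 0.1 FPKM.

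**Figure D2:**
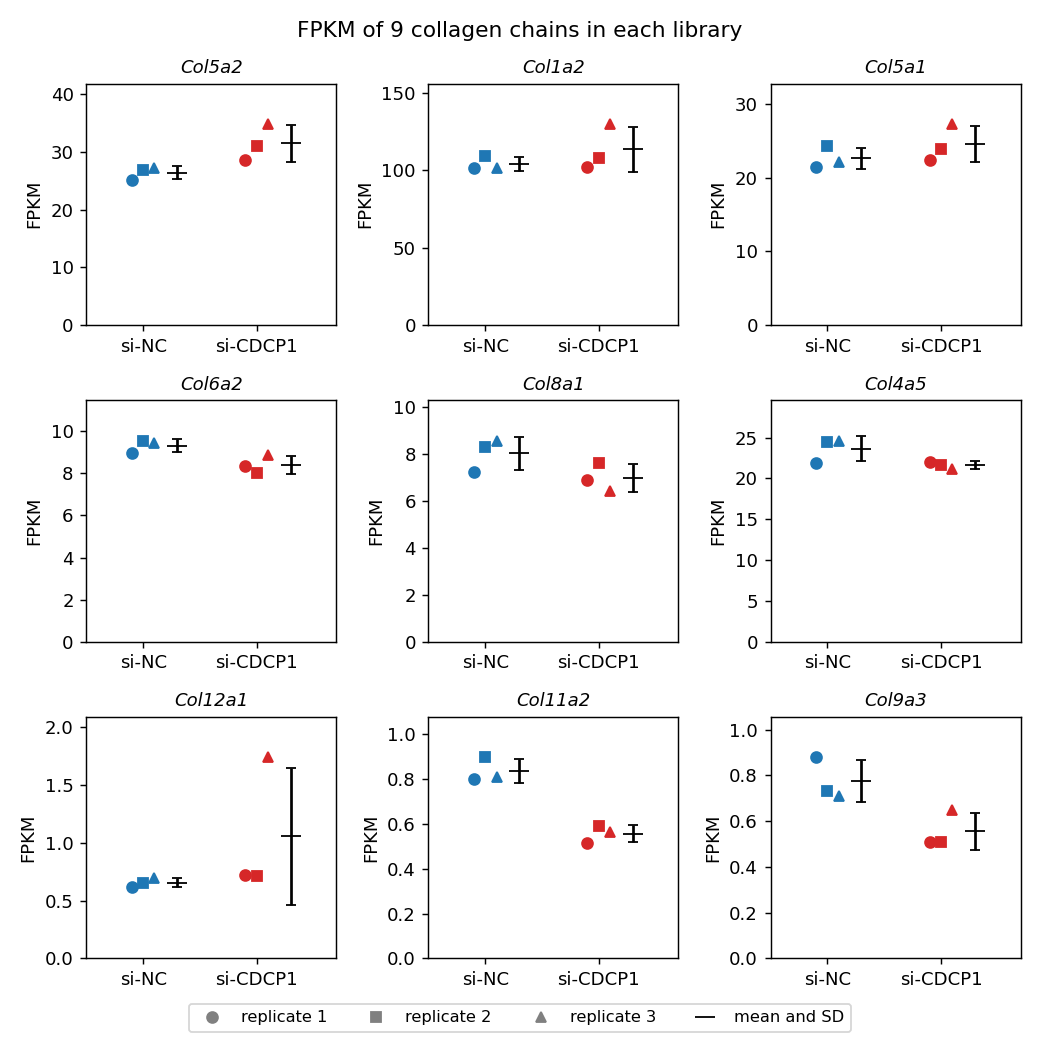
FPKM of 9 collagen chains in each library on axes that start at 0, with the mean and SD of each group (n = 3) as a black mark and bar. Col5a2 is higher and Col6a2 lower in all 3 si-CDCP1 libraries, whereas the Col12a1 mean of si-CDCP1 rests on replicate 3 at 1.74 FPKM.

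The knockdown label was then set against the control label for the 17 expressed chains, to ask whether collagen expression under Ang II differed with CDCP1 siRNA. Differences were taken between log2(FPKM + 1) values, a scale that compresses changes of low genes, and were tested with limma over the 12080 genes averaging 1 FPKM or more, with Benjamini-Hochberg (BH) adjustment. None of the 17 chains passed an adjusted p of 0.05, and neither did any gene (0 of 12080, 0.0%). At an unadjusted p under 0.05 there was 1 chain of 17, Col5a2, against 1722 of 12080 genes (14.3%). With limma voom, a test for read counts, on recovered reads, 0 of 28 chains and 5 of 14365 genes (0.0348%) passed, and 4 chains against 2129 genes (14.8%) had an unadjusted p under 0.05. Positive differences were found in 8 of the 17 chains and in 6314 of all genes tested (52.3%), and the median difference was -0.01 for the chains and 0.01 for all genes. The shares of collagen chains were thus near or below those of all genes. Equal FPKM sums turned 4 of the 8 positive differences, leaving 4 of 17.

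Col5a2 had a difference of 0.24 (SE 0.078, 95% interval 0.06 to 0.43) on the log2(FPKM + 1) scale, with group means of 26.4 ± 1.14 and 31.5 ± 3.17 FPKM (SD, n = 3 each). This was the highest of the 17 chains, but Col3a1 was higher with pseudocounts of 0.1 and 0.01 FPKM, after quantile normalisation, in voom, and without si-NC replicate 3 or si-CDCP1 replicate 3. The BH-adjusted p of Col5a2 in limma was 0.298. The limma fit with library weights, which counts a variable library for less, gave an adjusted p of 0.0354, and limma voom without si-CDCP1 replicate 3 gave 0.0449, within a range of 0.0354 to 0.645 over 19 alternatives. Without si-CDCP1 replicate 3 the difference was 0.17. The weights of si-CDCP1 replicates 1, 2 and 3 were 0.600, 5.11 and 0.165, against 1.08 to 1.37 in si-NC, so that the weighted si-CDCP1 values rest mostly on replicate 2. With library weights, Col5a2 and Col6a2 were the 2 chains called of 17, against 865 of 12080 genes (7.16%). In limma voom without si-CDCP1 replicate 3, Col5a2 was the only chain called of 28, against 491 of 14365 genes (3.42%).

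Col6a2 averaged 9.31 ± 0.310 FPKM in si-NC against 8.40 ± 0.426 FPKM in si-CDCP1 (SD over 3 libraries), a log2 difference of -0.13 (SE 0.058) with a limma BH-adjusted p of 0.353. Under library weights that p was 0.0391, the lowest of 19 alternatives, of which the highest was 0.666. Col8a1 had a difference of -0.18 (95% interval -0.38 to 0.02), with means of 8.02 ± 0.709 and 6.96 ± 0.602 FPKM. For Col4a5 the log2 difference was -0.12 (95% interval -0.26 to 0.02), with a limma BH-adjusted p of 0.383. Col5a2 and Col6a2 were the only 2 of the 17 chains whose groups did not overlap, against 3025 of 12080 genes (25.0%).

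Apart from Col5a2, the intervals of the most abundant chains lay on both sides of 0. For Col1a1 the log2 difference was -0.01 with a 95% interval from -0.17 to 0.16, and for Col4a2 it was -0.03 with an interval from -0.15 to 0.09. Those of Col4a1 and Col6a1 were 0.04 (-0.10 to 0.17) and 0.00 (-0.19 to 0.19). The interval of Col1a2 ran from -0.10 to 0.33 around 0.12, and that of Col5a1 from -0.08 to 0.31 around 0.11. At the low end Col3a1, with a difference of 0.18, had an interval from -0.09 to 0.46, and Col7a1 one from -0.37 to 0.24. The Col3a1 difference is compressed by the pseudocount of 1 FPKM: it was 0.30 with 0.1 FPKM, 0.33 with 0.01 FPKM and 0.34 in limma voom (BH-adjusted p = 0.328, from 0.245 to 0.762 over the alternatives). Col16a1, Col18a1, Col20a1, Col11a1 and Col4a4 had log2 differences of -0.01, -0.03, -0.01, 0.01 and 0.00.

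**Figure D3:**
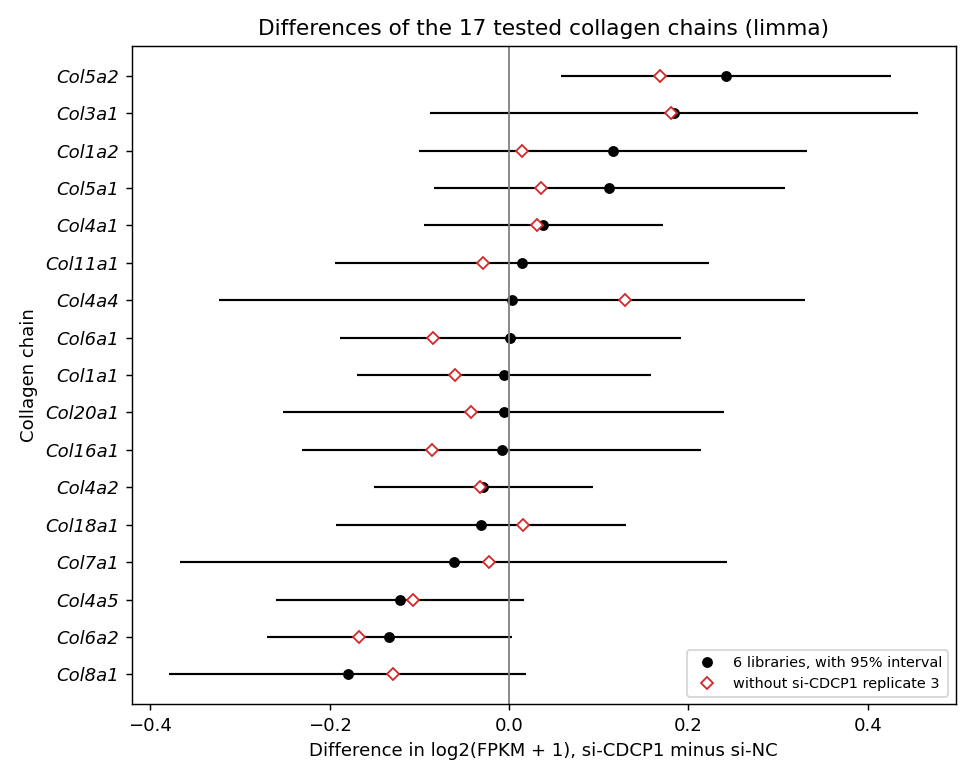
Difference in log2(FPKM + 1), si-CDCP1 minus si-NC, of the 17 tested chains, with filled points and 95% intervals from limma for all 6 libraries and open diamonds for the fit without si-CDCP1 replicate 3. The interval of Col5a2 (0.06 to 0.43) alone excludes 0, and the values of Col1a2, Col5a1 and Col6a1 move toward or below 0 without that library.

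Collagen values in si-CDCP1 replicate 3 also stood apart, in fibrillar and other chains. In that library 8 of the 17 chains lay above every other library and 4 below every other, against 34.0% and 30.0% of all genes. Of the 6 expressed fibrillar chains, 5 (all but Col3a1) had their highest FPKM there. So did 2 of the 2 tested fibril-associated chains (Col16a1 and Col20a1) and 1 of the 2 tested type VI chains (Col6a1). In si-CDCP1 replicate 3, reads in listed genes were 104.0% of the total implied by the FPKM steps, against 98.4% in each si-NC library. Scaling by listed reads would thus lower the values of this library relative to si-NC. The order of the chains on that scale was not computed. The difference of Col1a2 went from 0.12 to 0.01 without this library, that of Col5a1 from 0.11 to 0.04, and that of Col6a1 from 0.00 to -0.08. The median over the 6 fibrillar chains went from 0.11 to 0.03. Acta2, a marker of contractile and activated cells, was at 64.2 FPKM in the same library against 34.4 to 42.0 FPKM in the other 5. The 8 smooth muscle markers summed to 46.0 to 50.4 FPKM in si-NC against 44.6 to 75.9 FPKM in si-CDCP1. Whether a different state or makeup of that culture had a part in the collagen values was not tested.

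Partner chains that assemble into the same trimer can be compared within each library, where library scaling cancels. The FPKM ratio of Col5a2 to Col5a1 was 1.17, 1.11 and 1.23 in si-NC and 1.27, 1.30 and 1.28 in si-CDCP1. That ratio was higher in every si-CDCP1 library, replicate 3 being no exception to the others. For Col6a1 to Col6a2 it was 3.21, 3.26 and 3.21 in si-NC and 3.39, 3.52 and 3.84 in si-CDCP1, again without overlap. Col4a2 to Col4a1 gave 1.14, 1.15 and 1.16 in si-NC and 1.08, 1.13 and 1.09 in si-CDCP1, here lower in each si-CDCP1 library. The ratio of Col1a1 to Col1a2 was 2.71, 2.72 and 2.60 in si-NC and 2.64, 2.44 and 2.30 in si-CDCP1, with overlap. Of the type IV partners of lower level, Col4a5 to Col4a6 gave 21.5 to 31.1 in si-NC and 22.6 to 36.1 in si-CDCP1. Col4a4 to Col4a3 gave 3.53 to 5.87 and 4.30 to 7.07. Both overlapped, so the groups were apart in 3 of 6 partner ratios. Of those, the ratios with Col5a2 and Col6a2 hold chains whose own groups were already apart. How often ratios of other gene pairs separate the groups was not computed. These ratios were not tested, and a ratio shows unequal change, not which chain changed.

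**Figure D4:**
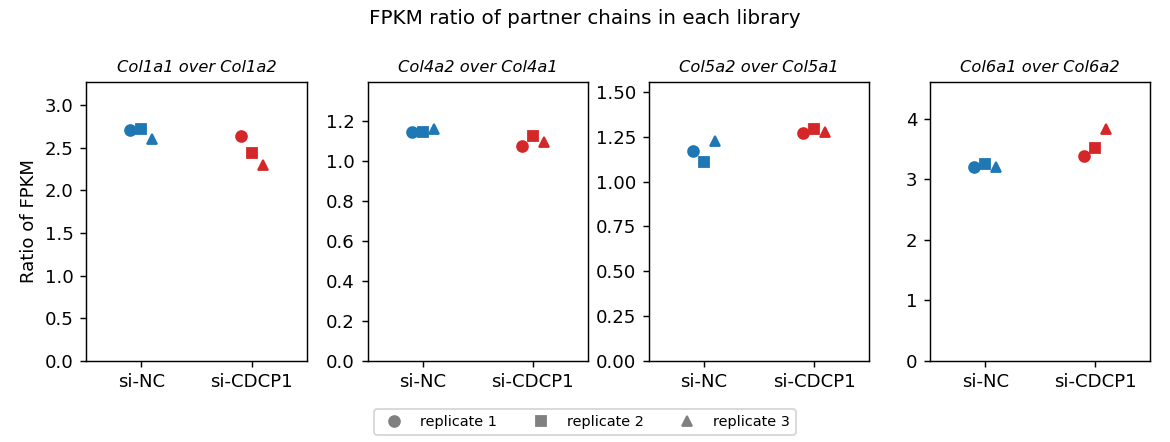
FPKM ratio of 4 pairs of partner chains in each library, si-NC in blue and si-CDCP1 in red, on axes that start at 0. The ratio of Col5a2 to Col5a1 lies between 1.11 and 1.23 in si-NC and between 1.27 and 1.30 in si-CDCP1.

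Several collagen genes lie next to each other on mm10, and the levels of such neighbours can be compared. The head-to-head pair Col4a1 and Col4a2 overlaps by 22 bases at its 5′ ends and averaged 28.2 and 31.7 FPKM over the 6 libraries. By contrast, Col4a6 and Col4a5, which also point away from each other with 1308 bases between them, averaged 0.826 and 22.7 FPKM. In the third such pair, Col4a4 and Col4a3, which lie 71 bases apart, the averages were 1.45 and 0.274 FPKM. The tail-to-tail pair Col3a1 and Col5a2 lies 24614 bases apart with no protein-coding gene between, at 1.36 and 29.0 FPKM. Adjacent Col6a2 and Col6a1, on the same strand, averaged 8.86 and 30.1 FPKM. The strand setting of the counting is not given in the sources used here, so reads in the overlap of Col4a1 and Col4a2 cannot be assigned with certainty.

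Domains are listed in the deposited gene descriptions. The triple helix repeat is named for 34 of the 44 chains, 13 of them expressed, and 9 chains, Col1a1 among them, have no domain listed. Von Willebrand factor type A domains, which bind other matrix proteins, are named for 12 chains, of which Col6a1, Col6a2, Col20a1 and Col7a1 were expressed. The type IV C-terminal domain is named for 5 chains (3 expressed), and the C1q domain of short-chain collagens for 3, of which only Col8a1 was expressed. Expressed chains had a median listed gene length of 7464 bases against 3980.5 over all genes tested. That length is given per gene, not per transcript.

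Of the 27 chains under 1 FPKM, those with the highest means were Col12a1, Col4a6 and Col11a2. Col12a1 (chromosome 9, 79598991 to 79718831, minus strand), a fibril-associated chain of load-bearing tissue, measured 0.621, 0.648 and 0.698 FPKM in si-NC against 0.721, 0.709 and 1.74 FPKM in si-CDCP1. The value in si-CDCP1 replicate 3, on 413 reads, was 2.56 times the mean of the other 5 libraries. In limma voom the log2 difference of Col12a1 was 0.54 (BH-adjusted p = 0.410), and without si-CDCP1 replicate 3 it was 0.13 (BH-adjusted p = 0.661). Col4a6 measured 0.762, 1.14 and 0.793 FPKM in si-NC against 0.978, 0.700 and 0.587 FPKM in si-CDCP1, with overlap.

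Col11a2 (chromosome 17, 34039437 to 34066685, plus strand), a cartilage fibril chain, measured 0.802, 0.898 and 0.811 FPKM in si-NC against 0.516, 0.593 and 0.563 FPKM in si-CDCP1. Its reads numbered 110, 100 and 99 against 61, 66 and 60, with no overlap. The limma voom log2 difference was -0.58 (SE 0.16, BH-adjusted p = 0.233), and without si-CDCP1 replicate 3 it was -0.59 (BH-adjusted p = 0.121). Col9a3, a fibril-associated chain of cartilage, had 68, 46 and 49 reads in si-NC and 34, 32 and 39 in si-CDCP1, and a voom log2 difference of -0.49 (BH-adjusted p = 0.340). Col4a3 measured 0.345, 0.302 and 0.269 FPKM in si-NC against 0.243, 0.240 and 0.244 FPKM in si-CDCP1. Of the 9 chains between 0.1 and 1 FPKM, the groups did not overlap for 3 lower chains (Col11a2, Col9a3 and Col4a3) and 1 higher chain (Col12a1). Among all 5765 genes in that range, 7.74% were lower and 3.76% higher without overlap. Col9a3 and Col4a3 were chosen after their values were seen. Sox9, a transcription factor of cartilage cells, averaged 5.46 ± 0.448 FPKM in si-NC against 7.07 ± 0.653 FPKM in si-CDCP1, while the cartilage proteoglycan gene Acan had 0 reads in si-NC and 1 read in si-CDCP1. Runx2, a transcription factor of bone and late cartilage cells, had the opposite direction, at 5.47 ± 0.236 FPKM in si-NC against 5.03 ± 0.184 FPKM in si-CDCP1, and was lower in all 3 si-CDCP1 libraries. Neither Sox9 nor Runx2 passed (limma BH-adjusted p = 0.267 and 0.451). The 6 cartilage and bone markers, of which only Sox9 and Runx2 reached 1 FPKM and Ibsp was at 0 in every library, summed to 10.7 to 11.9 FPKM in si-NC against 12.0 to 13.6 FPKM in si-CDCP1, and their part in the values of Col11a2 and Col9a3 was not tested.

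The enzymes and chaperones that make, trim, cross-link and remove collagen form the rest of the pathway. Of 21 genes of folding, modification and secretion, 20 were tested and 0 passed in either direction. Of these 20, 13 had positive and 7 negative log2 differences, with a median of 0.03 against 0.01 over all genes. With equal FPKM sums the balance turned, to 8 positive and 12 negative. That scaling lowers si-CDCP1 values relative to si-NC, since FPKM sums were higher in each si-CDCP1 library, and moves the median of all genes from 0.01 to -0.04. Serpinh1, the collagen chaperone HSP47, averaged 534 ± 4.96 and 561 ± 6.84 FPKM (SD, n = 3 each) and was higher in all 3 si-CDCP1 libraries. Its log2 difference was 0.07, but 0.02 with equal FPKM sums. P4ha1 and P4ha2, catalytic subunits of the prolyl hydroxylase that stabilises the helix, averaged 40.7 ± 1.35 against 37.8 ± 0.547 FPKM and 8.55 ± 0.329 against 7.82 ± 0.284 FPKM. For both, every si-CDCP1 value was below every si-NC value. P4hb went the other way, at 287 ± 4.46 and 298 ± 1.73 FPKM, and was higher in all 3 si-CDCP1 libraries. Its log2 difference of 0.05 was -0.00097 with equal FPKM sums. P4hb is singled out here after its values were seen. Of the 20 genes tested, 3 were higher and 3 lower without overlap, and 25.0% of all genes tested did not overlap. Colgalt1, which adds galactose to hydroxylysine, averaged 51.2 ± 0.721 and 56.6 ± 4.35 FPKM. Its log2 difference of 0.14 was 0.08 without si-CDCP1 replicate 3 and 0.09 with equal FPKM sums. The lysyl hydroxylase gene Plod2 averaged 18.4 ± 0.406 and 19.7 ± 1.02 FPKM. Plod1, of the same enzyme family, was lower in all 3 si-CDCP1 libraries, at 13.9 ± 0.358 and 12.4 ± 1.43 FPKM. The Plod1 difference was -0.16, and -0.07 without si-CDCP1 replicate 3. Plod1 is singled out after its values were seen, and Plod3 differed by 0.01. None of the named differences passed, the smallest limma BH-adjusted p being 0.353 for P4ha1. With library weights Crtap, a partner of prolyl 3-hydroxylase, passed (adjusted p = 0.0483, from 0.0483 to 0.957 over the alternatives). That fit called 7.16% of all genes tested.

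Propeptide removal was covered by 6 tested genes of 9, with 3 positive and 3 negative differences (1 and 5 with equal FPKM sums) and 0 calls. Adamts14, a procollagen N-proteinase, averaged 4.66 ± 0.320 FPKM in si-NC against 3.59 ± 0.315 FPKM in si-CDCP1, a log2 difference of -0.30 (SE 0.080) with a limma BH-adjusted p of 0.267. It was lower in all 3 si-CDCP1 libraries, and passed with library weights (adjusted p = 0.0269, from 0.0269 to 0.645 over the alternatives). The weighted fit called 7.16% of all genes tested. Bmp1, the procollagen C-proteinase, averaged 13.4 ± 0.393 and 12.7 ± 0.111 FPKM, its enhancer gene Pcolce 162 ± 3.76 and 164 ± 18.5 FPKM, and Pcolce2 2.49 ± 0.232 and 3.03 ± 0.489 FPKM. The difference of Pcolce, 0.02, was -0.07 without si-CDCP1 replicate 3 and -0.04 with equal FPKM sums, and that of Pcolce2 went from 0.20 to 0.11 without that library.

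All 5 lysyl oxidase genes, which cross-link collagen, were tested and 0 passed, with 3 positive and 2 negative differences (2 and 3 with equal FPKM sums). Lox averaged 38.8 ± 3.00 and 50.6 ± 6.41 FPKM, a log2 difference of 0.37, and Loxl4 39.7 ± 2.18 and 47.7 ± 8.22 FPKM, a difference of 0.25. Without si-CDCP1 replicate 3 those differences were 0.27 and 0.11. Loxl2, at 13.1 ± 0.733 and 10.8 ± 0.431 FPKM, had the opposite sign, at -0.26 on the log2(FPKM + 1) scale and -0.24 without that library. Limma BH-adjusted p was 0.267 for Lox and for Loxl2. In limma voom without si-CDCP1 replicate 3 both passed, Lox higher (BH-adjusted p = 0.00751) and Loxl2 lower (0.0328). That fit called 491 of 14365 genes (3.42%). Over the alternatives the adjusted p ranged from 0.00751 to 0.645 for Lox and from 0.0249 to 0.645 for Loxl2.

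Of 10 collagen receptor and uptake genes, 4 were tested and 0 passed, with 2 positive and 2 negative differences. Itgb1, the shared beta chain of collagen-binding integrins, averaged 204 ± 8.37 and 226 ± 25.4 FPKM. The 4 integrin alpha chains of the list, Itga1, Itga2, Itga10 and Itga11, averaged under 1 FPKM. Ddr2, a receptor kinase for fibrillar collagen, averaged 63.4 ± 1.59 and 69.2 ± 12.9 FPKM, and the endocytic receptor gene Mrc2 49.0 ± 0.606 and 45.7 ± 2.99 FPKM. Ddr1 averaged 29.2 ± 2.09 and 27.3 ± 2.11 FPKM. Without si-CDCP1 replicate 3 the difference of Ddr2 went from 0.11 to -0.04, that of Itgb1 from 0.14 to 0.05, that of Mrc2 from -0.10 to -0.05 and that of Ddr1 from -0.09 to -0.03.

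Of 9 protein-coding collagen-cleaving protease genes, 4 were tested, 0 passed, and 3 differences were positive and 1 negative (2 of each with equal FPKM sums). Mmp13, the main interstitial collagenase of rodents, measured 13.9, 14.3 and 19.2 FPKM in si-NC against 26.1, 27.3 and 25.3 FPKM in si-CDCP1. Its log2 difference was 0.71 (SE 0.12, limma BH-adjusted p = 0.238), and 0.73 without si-CDCP1 replicate 3. In limma voom without that library it passed (BH-adjusted p = 0.000202, from 0.000202 to 0.645 over the alternatives). That fit called 3.42% of all genes tested. The membrane protease gene Mmp14 averaged 24.02 ± 0.913 and 25.04 ± 1.99 FPKM, and Mmp2, a gelatinase, 50.2 ± 0.716 and 48.5 ± 7.03 FPKM. The lower Mmp2 mean rests on si-CDCP1 replicate 3, at 40.4 FPKM against 52.3 and 52.9 FPKM in replicates 1 and 2, and without it the difference turned from -0.06 to 0.07. For Mmp14 it went from 0.06 to 0.12 without that library and to 0.0028 with equal FPKM sums.

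**Figure D5:**
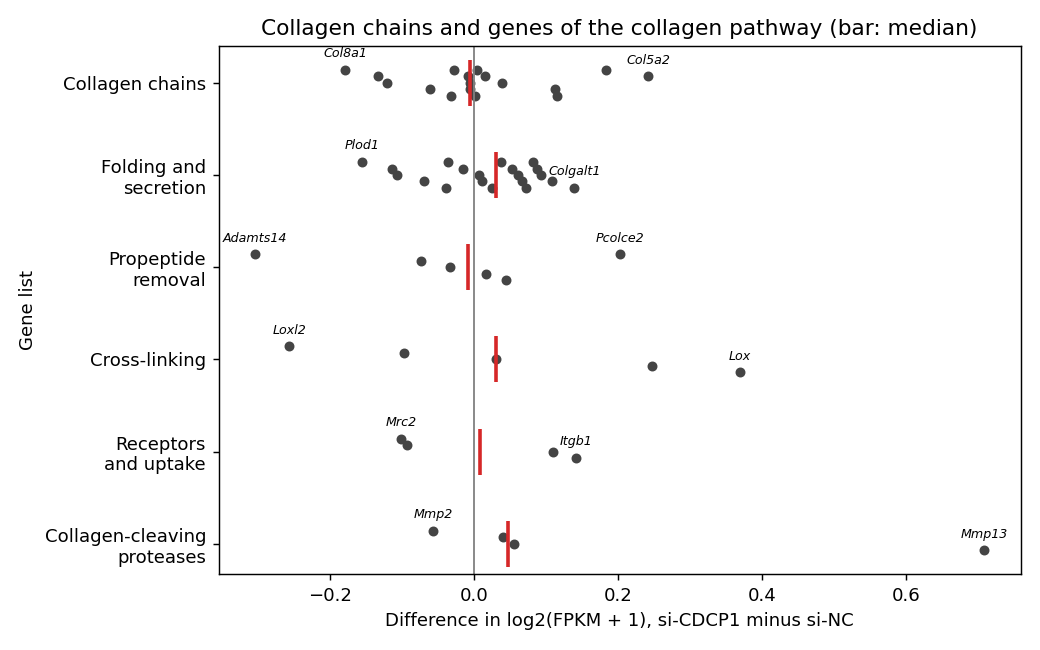
Difference in log2(FPKM + 1), si-CDCP1 minus si-NC, of each tested collagen chain and each tested gene of the 5 pathway lists, with the median as a red bar and the lowest and highest gene of each list named. Collagen chains span -0.18 to 0.24, and Mmp13 lies farthest from 0, at 0.71.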

How the data were processed

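Libraries were made from total RNA with an mRNA kit, per the labels' protocols, and the authors deposited FPKM values and gene lengths in 1 table. The build is mm10, per the submitters' processing notes. No aligner, counter or strand setting is stated (not given in the sources used here). FPKM times gene length fell within 0.01 of a whole multiple of 1 step for 100.0% of values above 0, so reads were recovered. Libraries were grouped by title. Log2(FPKM + 1) of genes averaging 1 FPKM or more was fitted with limma 3.58.1 (R 4.3.3, intensity trend, two-sided, BH threshold 0.05). Limma voom used genes reaching 10 reads in 3 or more libraries with totals taken from those steps. Voom thus kept the library scaling of FPKM and was no separate check of it. Listed reads made up 98.4% of these totals in si-NC but 99.85% to 104.0% in si-CDCP1. Scripts were tested on simulated data.

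The collagen chains, lists and tests were chosen with earlier results of these data known. The text names every expressed chain, the 3 highest chains under 1 FPKM, and the 3 genes of smallest p in each pathway list with 8 preset genes. Alternatives were other pseudocounts, filters, scalings, library weights, gene-length trend removal (lowess span 0.3), a replicate block, voom and each library left out. Replicate pairs differed by more than sampling noise (chi-square per degree of freedom at least 2.86). No table gave sequences, so none is printed.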

Additional observations from a re-analysis of the deposited data

How the results depend on the processing

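The main limits are 3 libraries a group, 1 library (si-CDCP1 replicate 3) that stands apart, and a mouse gene table for samples labelled rat. Against 0 genes called, 7 passed with no filter, 4 with a filter of 5 FPKM, 1 with equal FPKM sums, 2 after quantile normalisation, 3 with the length trend removed, 2 among protein-coding genes, 5 with voom, 865 with library weights and 491 with voom without si-CDCP1 replicate 3. The replicate block gave 1 gene and 0 collagen chains. Correlations of same-numbered libraries, taken on deviations from group means, were -0.020, 0.026 and 0.022, so these libraries shared little variation. The labels do not state a pairing, and such correlations cannot settle whether the libraries were paired. Leaving out 1 library at a time gave 0 to 1 genes, 0 to 0 chains, 0 to 0 pathway genes, 6 to 13 chains with a positive difference, a summed collagen level from -0.033 to 0.068 (log2, 0.027 with all) and a Cdcp1 difference from -0.0137 to 0.00897 FPKM. The 13 came without si-NC replicate 2. Collagen chains called numbered 2 of 17 with library weights and 1 of 28 with voom without si-CDCP1 replicate 3, and pathway genes 5 and 3. Over all genes the shares called in those fits were 7.16% and 3.42%. The 5 pathway lists held 20, 6, 5, 4 and 4 genes tested in the main fit and with library weights. Pathway genes tested by voom were not counted. Against 8 positive chains there were 20 with no filter, 5 with a filter of 5 FPKM and 4 with equal sums. Of 318 recomputed chain values 37 changed sign, none in 7 of the 17 chains. Equal sums gave Col6a1 -0.051, Col4a1 -0.014, Col11a1 -0.020 and Col4a4 -0.028. Quantile normalisation gave Col6a1 -0.050, Col4a1 -0.011, Col20a1 0.063 and Col7a1 0.016, and length trend removal Col6a1 -0.0061. Library weights gave Col6a1 -0.077, Col4a1 -0.0056, Col11a1 -0.023 and Col20a1 0.019. Voom without si-CDCP1 replicate 3 gave Col6a1 -0.086, Col18a1 0.020 and Col11a1 -0.050, and pseudocounts of 0.1 and 0.01 FPKM gave Col4a4 -0.0024 and -0.0041. Leaving out 1 library gave ranges of -0.060 to 0.043 for Col1a1, -0.062 to 0.0070 for Col4a2, -0.085 to 0.046 for Col6a1, -0.086 to 0.049 for Col16a1, -0.076 to 0.016 for Col18a1, -0.029 to 0.038 for Col11a1, -0.075 to 0.13 for Col4a4, -0.042 to 0.050 for Col20a1 and -0.15 to 0.017 for Col7a1. The cause of these changes was not tested.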
